A study of Mus musculus with 17 samples.

Results

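The 40 genes described here are mouse genes whose products act in S phase, when DNA is copied, and in G2 and mitosis, when the copied chromosomes are prepared and pulled apart. They were taken by symbol from a list chosen with earlier results of these data known. All 40 were found among the 41709 gene symbols of the deposited expression table. By role they are the G1/S cyclins Ccne1 and Ccne2 with Cdk2; the mitotic cyclins Ccna2, Ccnb1 and Ccnb2 with Cdk1 and Cdc25c; the licensing factors Cdc6 and Cdt1 with Mcm2, Mcm3, Mcm4, Mcm5, Mcm6 and Mcm7; and Pcna, Rrm1, Rrm2 and Tyms of the replication clamp and nucleotide supply. The others are the proliferation genes Mki67 and Top2a, the mitotic kinases Aurka, Aurkb and Plk1 with Birc5, the checkpoint and anaphase genes Bub1, Bub1b, Cdc20 and Ube2c, the centromere genes Cenpa, Cenpe and Cenpf, the spindle genes Kif11, Tpx2 and Nusap1, the cytokinesis genes Kif20a, Kif23 and Ect2, and the transcription factor Foxm1. The expression of all 40 passed the minimum for testing in every comparison.

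RNA was sequenced from 17 single whole C57BL/6J mouse embryos of 2 experiments. At embryonic day 9.5 (E9.5) there were 4 wild types (Disp1_WT) and 4 embryos carrying a CS and an INDEL allele of Disp1, bred from Disp1 CS/+ females and Disp1 INDEL/+ males (Disp1_CS_INDEL). At E8.5 there were 4 Myo10 +/+ embryos (Myo10_WT) and 5 homozygotes of the Myo10 m1J allele (Myo10_m1J), both from parents with 1 copy of that allele. Disp1 encodes Dispatched1, which releases Hedgehog ligands from cells, and Myo10 encodes an unconventional myosin found at the tips of filopodia. The labels state neither what the Disp1 alleles change in the protein nor the litter of any embryo. Each value is therefore the mean over every cell type of an embryo, and in such bulk RNA fewer dividing cells and less of a transcript per dividing cell cannot be told apart.

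Cells pass from G1 into S phase when cyclin E with Cdk2 releases E2F transcription factors from the retinoblastoma proteins, which raises the genes for licensing, the MCM helicase and nucleotide synthesis. Later, MuvB complexes with Foxm1 raise the genes for mitotic entry, spindle and cytokinesis, and in resting cells the related DREAM complex holds both sets down. Promoters of the mitotic genes are known for the cell cycle genes homology region (CHR), bound by MuvB, and for CCAAT boxes, bound by NF-Y, whereas S phase promoters are known for E2F sites. At the ages studied nearly all tissues of the mouse embryo contain cycling cells, while the first neurons have begun to leave the cycle.

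The promoter sequences, which the selection of the 40 genes did not use, differed between the 2 classes in CHR and E2F matches and less in CCAAT. RefSeq promoters of build GRCm38.p6, each 300 bases long from 250 bases before to 50 after a transcription start, were matched by symbol for 32 of the 40 genes, with 34 promoters because Ect2 and Mcm7 have a pair each. The counts below are of promoters, from 19 G2/M genes and 13 G1/S and S genes. The Ect2 pair holds the same matches in the same order at shifted positions (first CHR at -114 and -138), and both promoters were counted. Motifs were searched on both strands as TTTGAA or TTTAAA for the CHR, CCAAT for the CCAAT box, and TTTCGCGC, TTTGGCGC, TTTCCCGC or TTTGCCGC for E2F; none of the searched letters of one motif contains another, though matches can share bases. A CHR was found in 18 of 20 promoters of the G2/M genes, in 4 of 14 of the G1/S and S genes and in 27.6% of all 32851 promoters of that length. CCAAT was found in 18 of 20, in 10 of 14 and in 37.4%. An E2F match was found in 1 of 20, in 7 of 14 and in 2.26%, and a CHR together with CCAAT in 17 of 20, in 3 of 14 and in 10.7%. These matches are descriptions of letters and do not show binding. No promoter was matched for Ccne2, Ccna2, Cdc25c, Mcm4, Aurkb, Tpx2, Kif20a and Foxm1, so their letters were not examined. The promoters below, of 160 bases each in GRCm38.p6, belong to genes on which the results turn: 5 of the G2/M class, of which Plk1 and Ube2c lay higher and Cenpf lower at E9.5, and 2 of the MCM class. The 160 bases are those directly before the start, and capitals mark every match within them. A match on the opposite strand reads TTCAAA for the CHR and ATTGG for CCAAT. Matches elsewhere in the 300 bases were counted but are not printed. Among these are a CHR of Mcm5 at -221 and, after the start, a CHR of Plk1 and of Cenpf and a CCAAT of Mcm5.
Plk1, chr7:122159275-122159434 (plus strand): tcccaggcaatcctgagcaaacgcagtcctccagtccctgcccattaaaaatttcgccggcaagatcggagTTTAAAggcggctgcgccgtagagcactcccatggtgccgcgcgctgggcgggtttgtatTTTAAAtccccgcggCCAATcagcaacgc
Ube2c, chr2:164769769-164769928 (plus strand): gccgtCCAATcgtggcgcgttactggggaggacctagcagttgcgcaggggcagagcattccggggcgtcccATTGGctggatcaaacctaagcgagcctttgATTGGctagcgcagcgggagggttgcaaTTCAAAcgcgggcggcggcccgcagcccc
Ccnb1, chr13:100786487-100786646 (minus strand): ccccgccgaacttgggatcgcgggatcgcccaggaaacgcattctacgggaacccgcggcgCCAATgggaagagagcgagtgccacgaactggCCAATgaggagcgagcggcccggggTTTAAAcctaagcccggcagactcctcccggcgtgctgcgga
Mki67, chr7:135716380-135716539 (minus strand): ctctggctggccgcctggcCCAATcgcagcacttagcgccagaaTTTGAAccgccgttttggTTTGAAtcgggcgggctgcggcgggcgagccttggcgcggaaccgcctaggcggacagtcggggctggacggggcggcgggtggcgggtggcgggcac
Cenpf, chr1:189688087-189688246 (minus strand): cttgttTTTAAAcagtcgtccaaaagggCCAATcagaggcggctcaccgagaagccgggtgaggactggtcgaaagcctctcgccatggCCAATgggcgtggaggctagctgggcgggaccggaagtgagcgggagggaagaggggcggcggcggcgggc
Mcm5, chr8:75109349-75109508 (plus strand): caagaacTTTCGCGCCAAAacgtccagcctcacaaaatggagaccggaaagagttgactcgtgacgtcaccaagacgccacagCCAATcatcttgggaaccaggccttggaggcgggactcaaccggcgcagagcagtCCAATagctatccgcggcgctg
Mcm6, chr1:128359706-128359865 (minus strand): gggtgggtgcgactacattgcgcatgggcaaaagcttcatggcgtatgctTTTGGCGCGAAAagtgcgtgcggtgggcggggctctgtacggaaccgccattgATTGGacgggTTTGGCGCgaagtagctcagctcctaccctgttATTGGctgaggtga
Plk1 and Cenpf both hold CHR and CCAAT letters, although their levels differed between the ages in opposite directions. In Mcm5 and in the first E2F run of Mcm6, matches on opposite strands overlap and form a single longer run of capitals.

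The libraries of the 2 experiments differed in what else they contained, which bears on every comparison of the ages. TPM, the deposited unit, scales each library to a fixed total, so RNA of one kind lowers the TPM of all others. The structural RNAs 7SL, 7SK, RNase MRP and RNase P took 29.7 to 36.9% of TPM in Myo10_WT and 32.2 to 44.5% in Myo10_m1J, but 0.00480 to 0.0132% at E9.5. Protein-coding genes, without mitochondrial and replication-dependent histone genes, took 92.8 to 94.6% at E9.5 and 40.8 to 55.3% at E8.5. Differences between ages are therefore given on deposited TPM and on TPM rescaled to the same total over 20788 protein-coding genes, and median-of-ratios scaling, which centres each library on the median gene, is given where it changes a count. Age, experiment and library composition cannot be told apart on any scale. The targeted transcript was lower in Myo10_m1J, with Myo10 TPM of 4.35, 4.31, 3.59, 2.16 and 3.64 against 33.9, 26.6, 23.0 and 19.9 in Myo10_WT. Disp1 TPM was 18.4, 19.3, 17.2 and 15.3 in Disp1_WT and 16.3, 14.8, 14.5 and 11.6 in Disp1_CS_INDEL, and a transcript level does not read a change in the protein. Disp1_WT 3 and Disp1_CS_INDEL 1 stood apart in caudal transcripts (T 1.32 and 2.62 TPM against 10.4 to 15.7 in the other 6 E9.5 embryos, Hoxc10 0.134 and 1.46 against 40.8 to 54.6). Disp1_WT 3 also held yolk sac transcripts at 934 TPM summed and decidual ones at 785, against at most 87.9 and 29.2 in the other E9.5 embryos. At E8.5, Myo10_WT 1 had T at 10.4 TPM against 23.4 to 65.3 in the other 8. Myo10_m1J 2 held decidual and trophoblast transcripts at 245 TPM summed, against 0.734 to 34.5 in the other E8.5 embryos.

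In every embryo the 40 genes were detected as a strongly expressed group. Their mean TPM over the 17 embryos ran from 17.8 for Cdc25c, the phosphatase that switches on Cdk1, to 440.2 for Pcna, the sliding clamp of DNA replication. Summed, they made up 0.711 ± 0.0169% of deposited TPM in Disp1_WT and 0.729 ± 0.0245% in Disp1_CS_INDEL (mean ± SD, n = 4 embryos each). In Myo10_WT the share was 0.458 ± 0.0305% (n = 4), and in Myo10_m1J it was 0.430 ± 0.0418% (n = 5). After rescaling to protein-coding genes the order of the ages turned, with 0.759 ± 0.0165%, 0.778 ± 0.0204%, 0.898 ± 0.0185% and 0.913 ± 0.0182% in the same groups. Within each age the mean shares of mutants and wild types differed by less than 2 SD on both scales.

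**Figure D1:**
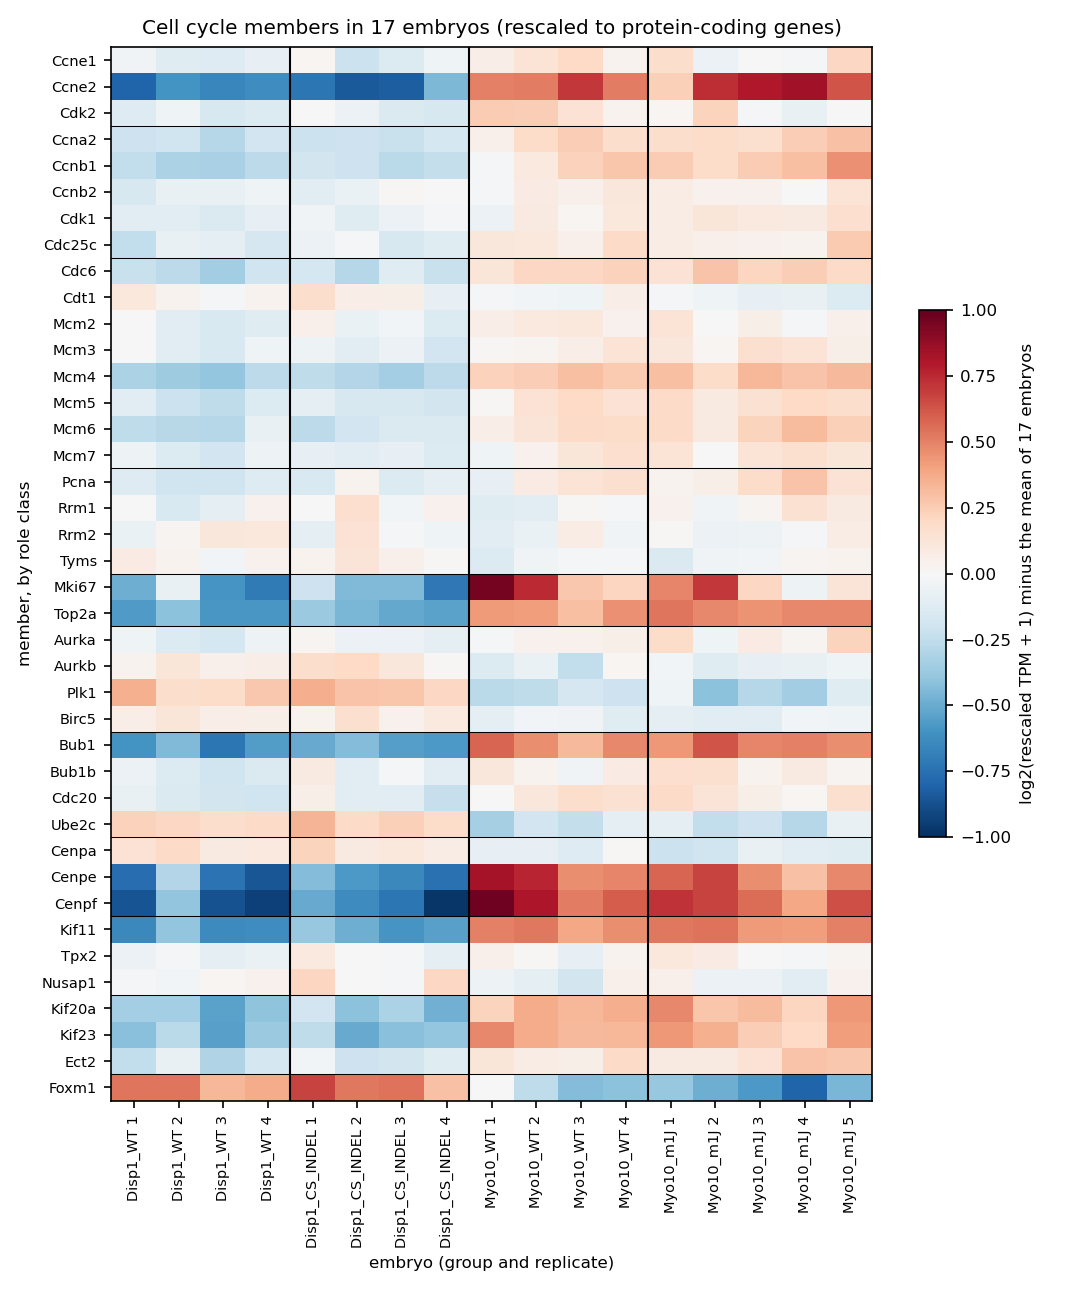
Each row is 1 of the 40 genes, ordered by role class, and each column 1 of the 17 embryos; colour is log2(TPM rescaled to protein-coding genes + 1) minus the gene's mean over the 17 embryos, from -1 to 1, with larger differences drawn at the end colours. Foxm1, Plk1 and Ube2c are red at E9.5 and blue at E8.5, and Cenpf, Cenpe and Ccne2 are the reverse; mutants and wild types of an age look alike in most genes.

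The wild types of the 2 experiments were compared to ask how these genes differ between E9.5 and E8.5. On deposited TPM, limma with Benjamini-Hochberg adjustment at 0.05 called 31 of the 40 higher and 3 lower at E9.5, beside 69.4% and 10.2% of all 13397 genes tested. The median log2 difference of the 40 genes was 0.65, against 0.62 over all genes, so on this scale they moved about as far as the typical gene. After rescaling to protein-coding genes, limma with the same adjustment called 6 higher and 28 lower, beside 26.5% and 45.7% of 12872 genes, with a median of -0.22 against -0.16. With median-of-ratios scaling it called 12 higher and 12 lower, beside 38.2% and 34.7% of all genes, with a median of -0.01 against 0.03. All 3 scales called the same direction in the wild types for 9 genes: Foxm1, Plk1, Ube2c, Cenpa, Aurkb and Birc5 were higher at E9.5, and Cenpf, Cenpe and Ccne2 lower. For each of the other 31, at least 1 scale gave the other direction or no call. The share of all genes called alike on all 3 scales was not computed, so whether 9 of 40 is unusual is unknown. Without Disp1_WT 3, the counts were 31 higher and 3 lower on deposited TPM and 6 and 26 after rescaling.

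The mutants of the 2 experiments gave the same comparison in other embryos, confounded with their different genotypes. On deposited TPM 32 genes were called higher and 2 lower at E9.5 by limma with Benjamini-Hochberg adjustment, beside 77.5% and 8.28% of 13359 genes, with a median of 0.79 against 0.78. Rescaled to protein-coding genes, 6 were called higher and 24 lower, beside 29.8% and 42.2% of 12909, with a median of -0.19 against -0.10. With median-of-ratios scaling 10 were higher and 16 lower, beside 38.1% and 34.8%. The 6 genes higher on all scales in the wild types were so in the mutants as well, and Cenpf and Ccne2 were lower on all 3. Across the 40 genes the rescaled differences of the 2 pairs had a Spearman correlation of 0.976 and the same sign for 39; the pairs share no embryo but share the experiments and the library compositions. Foxm1 had the largest gap between the pairs, 0.33 on the log2 scale. Without Disp1_CS_INDEL 1, the counts were 31 higher and 2 lower on deposited TPM and 6 and 26 after rescaling.

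**Figure D2:**
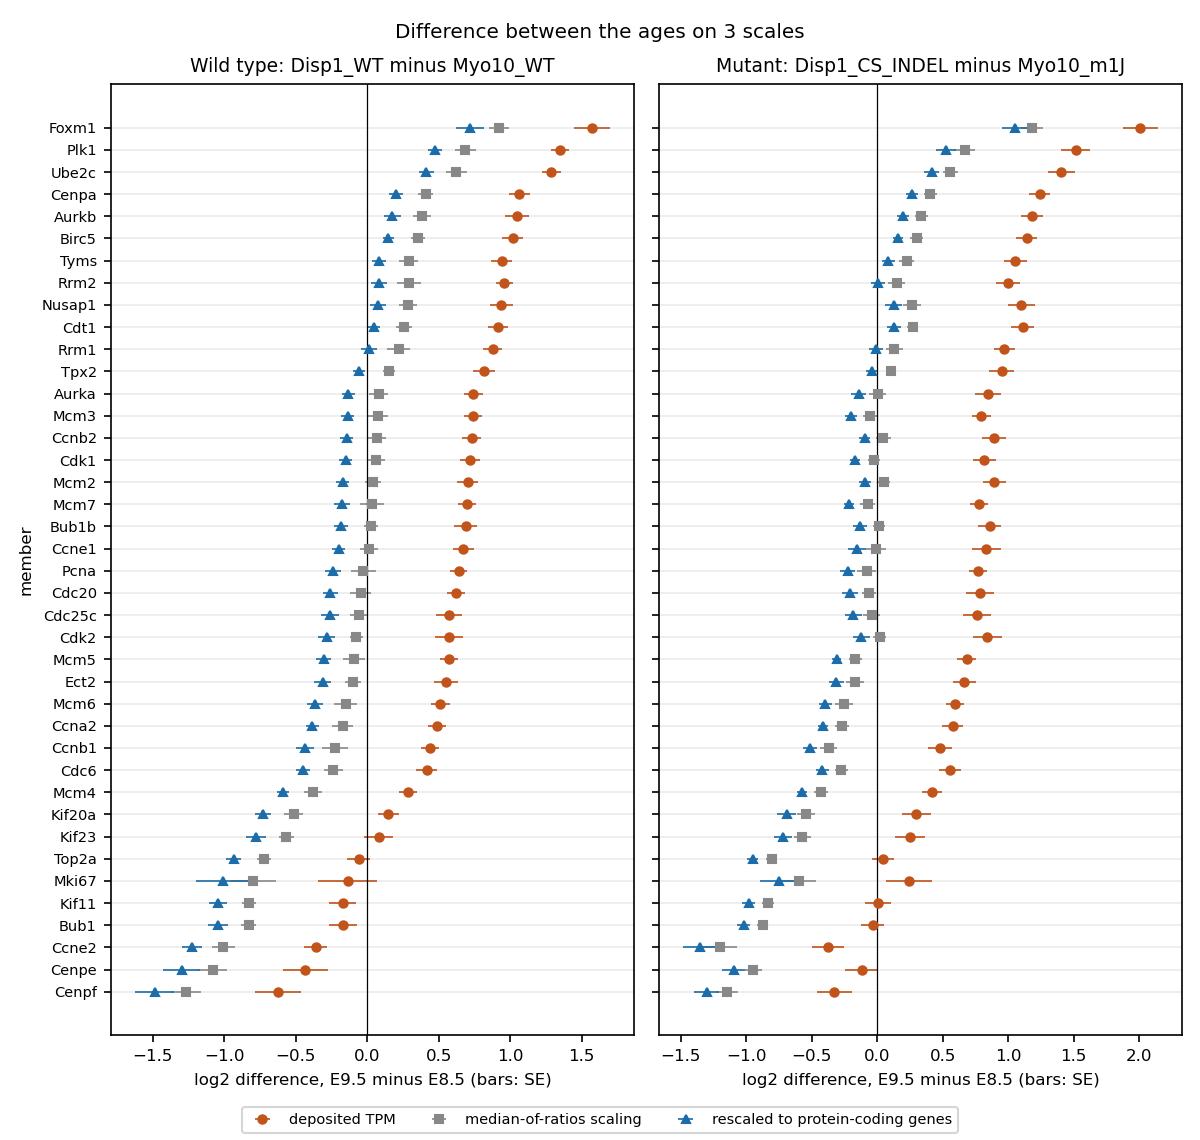
Points are the log2 difference of each gene between E9.5 and E8.5, with its standard error as a bar, in the wild types (left) and the mutants (right), on deposited TPM (circles), after median-of-ratios scaling (squares) and after rescaling to protein-coding genes (triangles). The 3 scales shift all genes together; Foxm1 at the top is to the right of 0 on each scale, and Cenpf at the bottom to the left.

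Foxm1, which drives the transcription of many G2 and mitosis genes, lay furthest above 0 of the 40 on all 3 scales. Foxm1 TPM was 88.2, 87.8, 75.9 and 77.7 in Disp1_WT, 97.6, 86.7, 88.5 and 73.3 in Disp1_CS_INDEL, 34.0, 29.8, 22.5 and 23.3 in Myo10_WT, and 23.6, 22.7, 19.4, 14.9 and 23.9 in Myo10_m1J. All 8 embryos of E9.5 lay above all 9 of E8.5, and Myo10_m1J 4 was the lowest. The log2 difference was 1.57 ± 0.13 (SE; limma adjusted p = 7.05e-07) in the wild types on deposited TPM and 0.72 ± 0.10 (adjusted p = 0.000114) after rescaling. In the mutants it was 2.01 ± 0.14 and 1.05 ± 0.10 (limma adjusted p = 3.89e-08 and 3.13e-06). Foxm1 kept its call with any embryo left out, on deposited TPM in 8 of 8 fits of the wild types and 9 of 9 of the mutants, and after rescaling in as many.

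The mitotic kinases and survivin gave 3 of the 6 genes that were higher on all scales. Plk1, the polo-like kinase that drives mitotic entry and centrosome maturation, had TPM of 387, 339, 341 and 359.9 in Disp1_WT, 391, 364, 364 and 344 in Disp1_CS_INDEL, 141, 148, 135 and 134 in Myo10_WT, and 149, 119.9, 119, 103 and 152 in Myo10_m1J. The ages did not overlap, and after rescaling the wild-type difference was 0.47 ± 0.05 (limma adjusted p = 2.01e-05), against 1.35 ± 0.06 (adjusted p = 1.99e-08) on deposited TPM. Aurkb, the kinase of the chromosomal passenger complex, had TPM of 140.1, 147, 139.8 and 141 in Disp1_WT, 155, 155, 147 and 135 in Disp1_CS_INDEL, 69.6, 76.3, 57.8 and 70.8 in Myo10_WT, and 68.1, 66.3, 61.8, 55.9 and 72.1 in Myo10_m1J. Its rescaled difference was small, 0.18 ± 0.06 in the wild types (limma adjusted p = 0.0193) and 0.20 ± 0.05 in the mutants (adjusted p = 0.00282). Without Disp1_WT 2, the highest of its group, the wild-type call was lost (limma adjusted p = 0.0517). Birc5 encodes survivin, a partner of Aurkb in that complex, and its TPM was 129, 133, 128 and 127 in Disp1_WT, 127, 136, 126 and 129 in Disp1_CS_INDEL, 65.2, 70.8, 60.5 and 58.0 in Myo10_WT, and 58.7, 60.5, 55.2, 52.2 and 65.2 in Myo10_m1J. Its rescaled values did not overlap between the ages and differed by 0.15 ± 0.04 in the wild types (limma adjusted p = 0.00721). Aurka, the kinase of the spindle poles, differed from these, with 0.74 ± 0.07 on deposited TPM and -0.13 ± 0.04 after rescaling (limma adjusted p = 1.67e-06 and 0.0188). The rescaled call of Aurka was lost without Disp1_WT 3 (-0.11, limma adjusted p = 0.0551), and in the mutants it held in 3 of 9 fits with an embryo left out (adjusted p of up to 0.115).

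Among the checkpoint and anaphase genes, Ube2c stood alone. Ube2c is the ubiquitin-conjugating enzyme of the anaphase-promoting complex, and its TPM was 269.8, 264, 258 and 259 in Disp1_WT, 293, 261, 269.8 and 257 in Disp1_CS_INDEL, 103, 118, 98.2 and 111 in Myo10_WT, and 110.0, 103, 96.2, 81.8 and 119 in Myo10_m1J. Every E9.5 value lay above every E8.5 value on both scales, and the wild-type difference was 1.29 ± 0.07 on deposited TPM and 0.41 ± 0.05 after rescaling (limma adjusted p = 3.73e-08 and 6.01e-05). Cdc20, which activates the same complex at the spindle checkpoint, had TPM of 449, 424, 411 and 406 in Disp1_WT, 492, 433, 436 and 395 in Disp1_CS_INDEL, 264, 299, 268 and 269 in Myo10_WT, and 274, 273, 236, 207 and 288 in Myo10_m1J. Deposited values did not overlap between the ages, but the wild-type difference of 0.62 ± 0.06 became -0.26 ± 0.05 after rescaling (limma adjusted p = 3.54e-06 and 0.00123). Bub1b, the checkpoint protein BubR1, had TPM of 176, 164, 157 and 163 in Disp1_WT, 196, 168, 180.0 and 167 in Disp1_CS_INDEL, 111, 109.7, 89.4 and 99.4 in Myo10_WT, and 105, 108, 90.1, 84.4 and 102 in Myo10_m1J, and its wild-type difference likewise went from 0.69 ± 0.08 to -0.18 ± 0.05. The checkpoint kinase Bub1 was not called on deposited TPM, at -0.17 ± 0.10 (limma adjusted p = 0.131), and was lower after rescaling, at -1.04 ± 0.07 (adjusted p = 1.69e-06).

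The 3 centromere genes split. Cenpa, the histone H3 variant that marks centromeres, had TPM of 86.3, 88.5, 82.7 and 82.7 in Disp1_WT, 91.4, 82.2, 83.9 and 81.1 in Disp1_CS_INDEL, 41.4, 43.3, 35.8 and 40.5 in Myo10_WT, and 34.1, 36.0, 35.7, 31.4 and 39.2 in Myo10_m1J. It was higher at E9.5 in all embryos, by 1.06 ± 0.07 on deposited TPM and 0.20 ± 0.05 after rescaling in the wild types (limma adjusted p = 2.47e-07 and 0.00336). Cenpf, a large kinetochore protein of G2 and mitosis, had TPM of 24.3, 33.7, 24.0 and 22.8 in Disp1_WT, 31.6, 28.5, 26.8 and 22.1 in Disp1_CS_INDEL, 50.1, 46.7, 32.4 and 35.2 in Myo10_WT, and 38.1, 38.2, 32.0, 25.6 and 38.7 in Myo10_m1J. Deposited values overlapped between the ages, with Disp1_WT 2 above Myo10_WT 3 among the wild types; after rescaling, E9.5 reached 36.0 at most while E8.5 began at 62.6. The wild-type difference was -0.62 ± 0.16 on deposited TPM and -1.49 ± 0.14 after rescaling (limma adjusted p = 0.0037 and 8.89e-06). In the mutants, the difference of -0.33 ± 0.14 on deposited TPM (limma adjusted p = 0.0404) kept its call in 3 of 9 fits with an embryo left out: Disp1_CS_INDEL 2, 3 and 4 and Myo10_m1J 1, 2 and 5 each ended it, with an adjusted p of up to 0.139. Cenpe, the kinesin that carries chromosomes to the spindle equator, had TPM of 30.7, 42.6, 31.0 and 28.4 in Disp1_WT, 39.0, 34.8, 33.3 and 30.5 in Disp1_CS_INDEL, 53.3, 52.8, 36.7 and 38.2 in Myo10_WT, and 40.3, 44.9, 35.1, 28.0 and 40.3 in Myo10_m1J. Its wild-type call on deposited TPM, -0.43 ± 0.15 (limma adjusted p = 0.0234), held in 4 of 8 such fits and was lost without Disp1_WT 1, Disp1_WT 4, Myo10_WT 1 or Myo10_WT 2, with an adjusted p of up to 0.0772; after rescaling the difference was -1.30 ± 0.13 (adjusted p = 1.69e-05) and held in all 8.

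**Figure D3:**
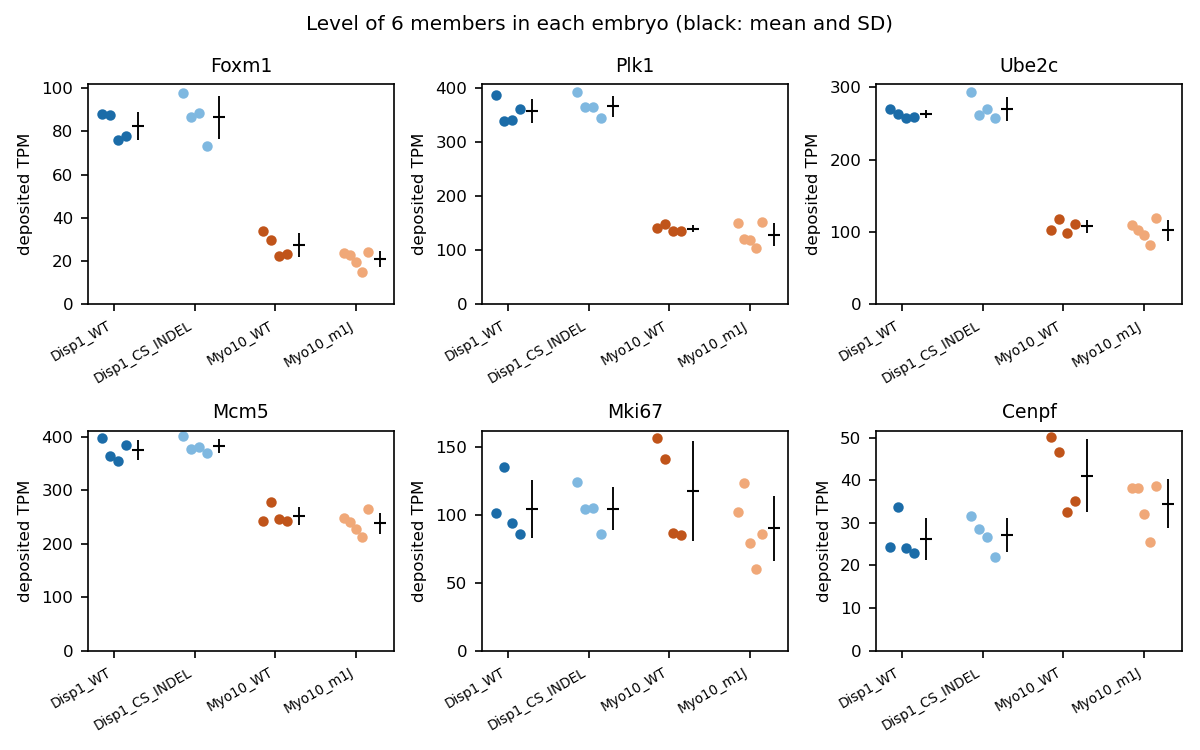
Deposited TPM of 6 genes in each embryo (points, by group) with the group mean and SD in black; each vertical axis starts at 0. Foxm1, Plk1, Ube2c and Mcm5 are higher in all 8 embryos of E9.5 than in the 9 of E8.5, whereas Mki67 and Cenpf spread widely within groups and overlap between them.

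The G1/S cyclins E1 and E2, which activate Cdk2 at the start of S phase, went apart. Ccne1 TPM was 149.8, 139, 139 and 143 in Disp1_WT, 156, 131, 139 and 147 in Disp1_CS_INDEL, 90.3, 98.6, 88.3 and 80.6 in Myo10_WT, and 87.8, 77.6, 73.7, 65.5 and 96.7 in Myo10_m1J. Its wild-type difference was 0.67 ± 0.07 on deposited TPM and -0.20 ± 0.05 after rescaling (limma adjusted p = 5.71e-06 and 0.00347). Ccne2 TPM was 26.3, 30.1, 29.0 and 29.6 in Disp1_WT, 27.9, 25.3, 25.7 and 33.2 in Disp1_CS_INDEL, 37.2, 39.0, 38.5 and 34.2 in Myo10_WT, and 28.0, 41.4, 39.2, 36.3 and 39.5 in Myo10_m1J. Its wild-type groups did not overlap, with all 4 embryos of E9.5 lower, while among the mutants Myo10_m1J 1 fell within the E9.5 range on deposited TPM. The wild-type difference was -0.36 ± 0.08 on deposited TPM and -1.23 ± 0.07 after rescaling (limma adjusted p = 0.00138 and 6.23e-07), and both calls held with any embryo left out. Cdk2 TPM was 39.8, 42.0, 38.6 and 39.0 in Disp1_WT, 43.6, 41.4, 39.0 and 38.3 in Disp1_CS_INDEL, 29.4, 30.3, 24.2 and 22.9 in Myo10_WT, and 22.4, 26.9, 20.7, 17.9 and 23.8 in Myo10_m1J, and its wild-type difference went from 0.57 ± 0.10 to -0.28 ± 0.06 with rescaling.

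Of the 5 mitotic cyclin genes with Cdk1 and Cdc25c, all were higher on deposited TPM and lower after rescaling in the wild types. Ccnb1, the cyclin B that brings cells into mitosis with Cdk1, had TPM of 205, 193, 192 and 200.3 in Disp1_WT, 214, 207, 200.5 and 202 in Disp1_CS_INDEL, 135, 153, 143 and 151 in Myo10_WT, and 147, 145, 139, 129 and 182 in Myo10_m1J. E9.5 values lay above those of E8.5 throughout, by 0.44 ± 0.06 in the wild types, but after rescaling they lay lower by the model, at -0.44 ± 0.06 (limma adjusted p = 4.55e-05 and 0.000173). The other 4 had rescaled wild-type differences of -0.38 ± 0.05 (Ccna2), -0.14 ± 0.04 (Ccnb2), -0.15 ± 0.05 (Cdk1) and -0.26 ± 0.06 (Cdc25c).

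All 8 licensing genes were higher at E9.5 on deposited TPM, and after rescaling 7 of them were lower. Mcm5, a subunit of the helicase ring loaded at origins, had TPM of 397, 365, 355 and 385 in Disp1_WT, 402, 378, 382 and 370.2 in Disp1_CS_INDEL, 243, 278, 247 and 242 in Myo10_WT, and 248, 241, 228, 212 and 264 in Myo10_m1J. The ages did not overlap on deposited TPM, and the wild-type difference was 0.57 ± 0.07, against -0.30 ± 0.05 after rescaling (limma adjusted p = 1.05e-05 and 0.000529). Mcm2 TPM was 207, 189, 184 and 188 in Disp1_WT, 214, 195, 202 and 184 in Disp1_CS_INDEL, 121, 129, 112 and 109 in Myo10_WT, and 116, 109, 104, 88.7 and 117 in Myo10_m1J, and its difference went from 0.70 ± 0.07 to -0.17 ± 0.04. The 6 MCM genes ran from -0.59 ± 0.04 (Mcm4) to -0.14 ± 0.05 (Mcm3) after rescaling. The call of Mcm3 held in 5 of 8 fits with an embryo left out and was lost without Disp1_WT 2, Disp1_WT 3 or Myo10_WT 4 (limma adjusted p of up to 0.0643). Cdc6, which loads the ring, was at -0.45 ± 0.05. Cdt1, its partner in loading and a protein kept to G1 by degradation, was the exception, with TPM of 140.2, 132, 127 and 132 in Disp1_WT, 148, 135, 135 and 121 in Disp1_CS_INDEL, 72.4, 74.9, 63.3 and 69.9 in Myo10_WT, and 65.1, 66.6, 59.0, 53.4 and 64.4 in Myo10_m1J and a rescaled difference of 0.04 ± 0.04 (limma adjusted p = 0.379).

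In the replication clamp and nucleotide class, all 4 genes were higher on deposited TPM and only Pcna was called after rescaling. Pcna TPM was 557, 523, 524 and 549 in Disp1_WT, 549.6, 617, 549 and 562 in Disp1_CS_INDEL, 323, 378, 335 and 348 in Myo10_WT, and 317, 334, 333, 319.7 and 367 in Myo10_m1J, and the wild-type difference was 0.64 ± 0.06 on deposited TPM and -0.24 ± 0.06 after rescaling (limma adjusted p = 2.91e-06 and 0.00354). Rrm2, the regulated subunit of ribonucleotide reductase, had TPM of 529, 559, 594 and 590.2 in Disp1_WT, 524, 606, 546 and 529 in Disp1_CS_INDEL, 288, 309.6, 293 and 278 in Myo10_WT, and 284, 282, 258, 238 and 319 in Myo10_m1J. This was a difference of 0.96 ± 0.06 on deposited TPM (limma adjusted p = 1.28e-07), but of 0.08 ± 0.06 after rescaling (adjusted p = 0.22). Rrm1, its constant partner, had TPM of 111, 99.3, 103 and 113 in Disp1_WT, 111, 123, 108 and 112 in Disp1_CS_INDEL, 57.5, 60.2, 56.3 and 56.1 in Myo10_WT, and 58.1, 57.4, 54.4, 53.4 and 64.7 in Myo10_m1J and a rescaled difference of 0.01 ± 0.06 (limma adjusted p = 0.89). Tyms, thymidylate synthase, was at 0.08 ± 0.05 after rescaling (limma adjusted p = 0.145).

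The spindle and cytokinesis genes were mixed on deposited TPM. Tpx2, which activates Aurka on spindle microtubules, had TPM of 192, 198, 187 and 189.6 in Disp1_WT, 215, 199, 198 and 186 in Disp1_CS_INDEL, 117, 119, 94.96 and 105 in Myo10_WT, and 109.8, 112, 96.9, 85.4 and 112 in Myo10_m1J, a wild-type difference of 0.81 ± 0.08 and a rescaled one of -0.06 ± 0.04 (limma adjusted p = 2.19e-06 and 0.227). Nusap1, which bundles spindle microtubules, had TPM of 72.3, 70.6, 73.2 and 73.9 in Disp1_WT, 84.6, 71.8, 71.4 and 82.7 in Disp1_CS_INDEL, 39.6, 39.9, 32.0 and 38.6 in Myo10_WT, and 38.3, 36.9, 33.6, 29.1 and 40.9 in Myo10_m1J and likewise was called on deposited TPM but not after rescaling, at 0.08 ± 0.06 (limma adjusted p = 0.238). The spindle motor Kif11 was not called on deposited TPM, at -0.17 ± 0.09 (limma adjusted p = 0.112), and was lower after rescaling, at -1.04 ± 0.06. Kif20a, a motor of the central spindle, had TPM of 159.6, 158, 138 and 150.5 in Disp1_WT, 177, 151, 162 and 142 in Disp1_CS_INDEL, 133, 153, 128 and 133 in Myo10_WT, and 143, 129.8, 121, 101 and 149 in Myo10_m1J. Its wild-type groups overlapped on deposited TPM, at 0.15 ± 0.08 (limma adjusted p = 0.0947), and it was lower after rescaling, at -0.73 ± 0.06 (adjusted p = 3.19e-06). Its partner Kif23 was at -0.78 ± 0.07 and Ect2, which activates RhoA for the cleavage furrow, at -0.31 ± 0.06 after rescaling, so all 3 cytokinesis genes were lower on that scale.

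Mki67 and Top2a, commonly used as markers of proliferation, were not called on deposited TPM in either age comparison. Top2a, which untangles DNA before chromosomes part, had TPM of 197, 218, 193 and 192 in Disp1_WT, 226, 209.6, 203 and 197 in Disp1_CS_INDEL, 220.3, 228, 181 and 206 in Myo10_WT, and 215, 215, 191, 176 and 222 in Myo10_m1J. The 4 groups overlapped, and the wild-type difference was -0.06 ± 0.08 (limma adjusted p = 0.507) on deposited TPM and -0.94 ± 0.05 (adjusted p = 7.06e-07) after rescaling. Mki67, which coats mitotic chromosomes, had TPM of 102, 135, 94.3 and 86.1 in Disp1_WT, 124, 104, 105 and 85.7 in Disp1_CS_INDEL, 157, 141, 86.7 and 85.6 in Myo10_WT, and 102, 124, 79.7, 59.8 and 85.7 in Myo10_m1J. The wild types ran from 86.1 to 135 at E9.5 and from 85.6 to 157 at E8.5, so the groups overlapped, and the wild-type difference was -0.14 ± 0.21 (limma adjusted p = 0.548) on deposited TPM and -1.01 ± 0.18 (adjusted p = 0.000788) after rescaling.

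By phase, none of the 15 G1/S and S genes was higher after rescaling in the wild types and 11 were lower (median -0.20), while of the 25 G2/M genes 6 were higher and 17 lower (median -0.26), beside 26.5% higher and 45.7% lower of all genes. The mutants gave 0 higher and 8 lower of 15, and 6 higher and 16 lower of 25, beside 29.8% and 42.2% of all genes. The balance of the phases itself differed little: the mean rescaled log2 level of the G2/M genes minus that of the G1/S and S genes was -0.59 ± 0.07 in Disp1_WT and -0.56 ± 0.05 in Disp1_CS_INDEL (mean ± SD, n = 4 each). It was -0.51 ± 0.08 in Myo10_WT (n = 4) and -0.54 ± 0.07 in Myo10_m1J (n = 5), and the ranges of all 4 groups overlapped.

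The rescaled age difference went with transcript length, both in these genes and in all genes. Cenpf (11.1 kb), Mki67 (10.1 kb), Cenpe (7.91 kb) and Top2a (5.22 kb) have the longest protein-coding transcripts of the 40 in GENCODE M21, and each was called lower at E9.5 after rescaling in both pairs by limma with Benjamini-Hochberg adjustment. Across the 40 genes, Spearman's correlation of length with the difference was -0.47 in the wild types and -0.46 in the mutants; across 12693 and 12732 genes it was -0.27 and -0.20. Genes are not independent replicates, and all points share the same libraries. Over all genes the wild-type median fell from 0.11 below 1.5 kb to -0.63 at 7 kb or more, and that of the mutants from 0.09 to -0.48. Foxm1 (4.65 kb) lay above its length class, whose all-gene median was -0.24 in the wild types, and Ccne2 (3.01 kb) and Bub1 (3.42 kb) lay below theirs, at -0.14. The part of transcript length in the calls of the long genes was not tested.

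**Figure D4:**
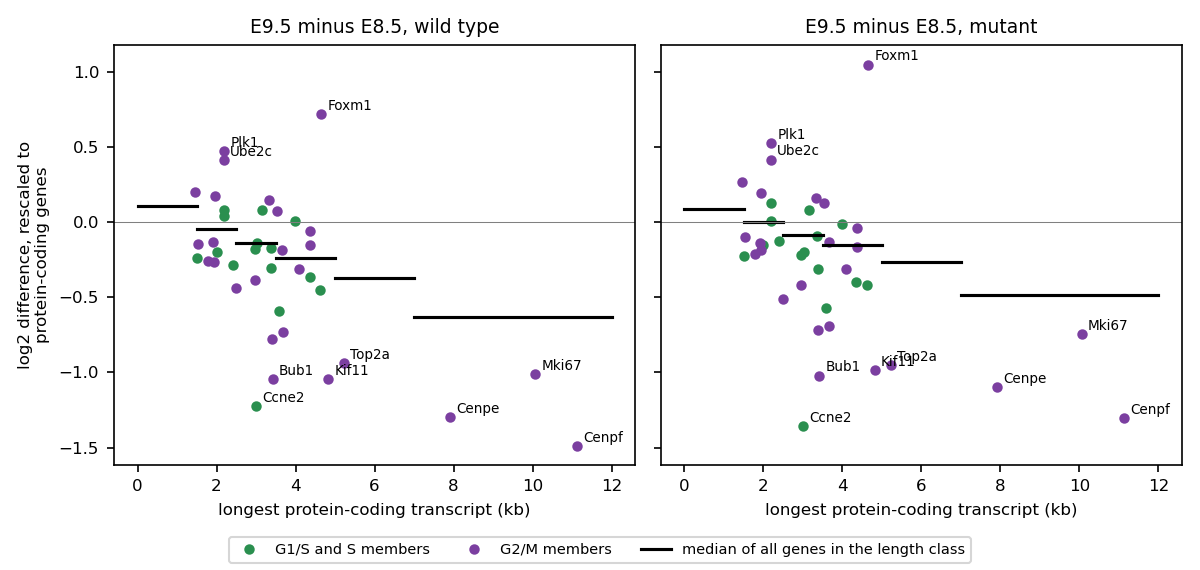
Each point is 1 of the 40 genes, by the length of its longest protein-coding transcript (kb) and its log2 difference between E9.5 and E8.5 after rescaling to protein-coding genes; green is G1/S and S, purple G2/M, and black lines are medians of all genes in a length class. The lines fall with length in both panels, with Foxm1 far above its line and Ccne2, Bub1, Cenpe and Cenpf below.

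Disp1_CS_INDEL embryos were compared with their wild types at E9.5 to ask whether the mutant changes these genes. None of the 40 was called by limma with Benjamini-Hochberg adjustment (0 higher and 0 lower, beside 0.00752% and 0.0226% of 13294 genes), and none had an unadjusted p under 0.05, against 301 of all genes. The log2 differences ran from -0.04 to 0.10, with a median of 0.05 against 0.01 over all genes, so mutant means were 97.0 to 107% of wild-type means. No gene had groups that did not overlap, beside 0.895% of all genes with all mutants above and 0.654% with all below. For 37 of the 40 the 95% interval of the difference lay within a 1.2-fold change either way; the widest intervals reached -0.30 for Mki67 and 0.35 for Cenpf.

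The 5 genes with the smallest p were Bub1b, Pcna, Rrm1, Nusap1 and Ccnb1, whose embryo values stand above. Bub1b was at 196, 168, 180.0 and 167 TPM in the mutants against 176, 164, 157 and 163 in the wild types, a difference of 0.10 ± 0.06 (limma with Benjamini-Hochberg adjustment, adjusted p = 1.00). The highest mutant value, 196, came from Disp1_CS_INDEL 1, an embryo low in caudal transcripts. Pcna differed by 0.08 ± 0.05, Rrm1 by 0.09 ± 0.06, Nusap1 by 0.09 ± 0.06 and Ccnb1 by 0.06 ± 0.04. Of the 40 differences 35 were above 0, but without Disp1_WT 3 and Disp1_CS_INDEL 1, an alternative chosen after seeing the data, 20 were above and 20 below, with a median of -0.0018 and again none called.

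Myo10_m1J embryos were compared with Myo10_WT at E8.5 for the same question. None of the 40 genes was called by limma with Benjamini-Hochberg adjustment (0 higher and 0 lower, beside 0% and 0.00796% of 12560 genes), and no gene had groups that did not overlap (0.0318% of all genes had all mutants above and 0.963% all below). The log2 differences on deposited TPM ran from -0.37 to 0.02, and 39 of 40 were below 0, with a median of -0.09 against -0.16 over all genes. This common sign followed the scale: after rescaling 27 were above 0 and 13 below, with a median of 0.03 against -0.06, and with median-of-ratios scaling 33 were above and 7 below. The 95% interval lay within a 1.2-fold change for 9 of the 40 genes on deposited TPM and for 33 after rescaling.

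Foxm1 had the smallest p among the 40 genes, and on deposited TPM it alone passed 0.05 before adjustment. Its TPM of 23.6, 22.7, 19.4, 14.9 and 23.9 in Myo10_m1J lay against 34.0, 29.8, 22.5 and 23.3 in Myo10_WT, with overlap of the groups. The difference was -0.37 ± 0.16 on deposited TPM (95% interval -0.72 to -0.02, limma adjusted p = 0.473) and -0.27 ± 0.11 after rescaling (adjusted p = 0.742). It was -0.26 without Myo10_WT 1, the embryo with low T, and -0.26 without Myo10_m1J 4, and it ranged down to -0.46 with other embryos left out. The next smallest p were those of Cdt1 (-0.18 ± 0.09), Cenpa (-0.19 ± 0.10), Cdk2 (-0.25 ± 0.13) and Mki67 (-0.37 ± 0.22), none of them called. Mki67 had the widest interval of all, reaching down to -0.85. After rescaling, Rrm1 was the only other of the 40 genes with an unadjusted p under 0.05, at 0.12 ± 0.05 (limma adjusted p = 0.742). How many of all genes passed 0.05 before adjustment is not given here for either scale. The unadjusted p-values therefore do not set Foxm1 or Rrm1 apart from other genes.

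**Figure D5:**
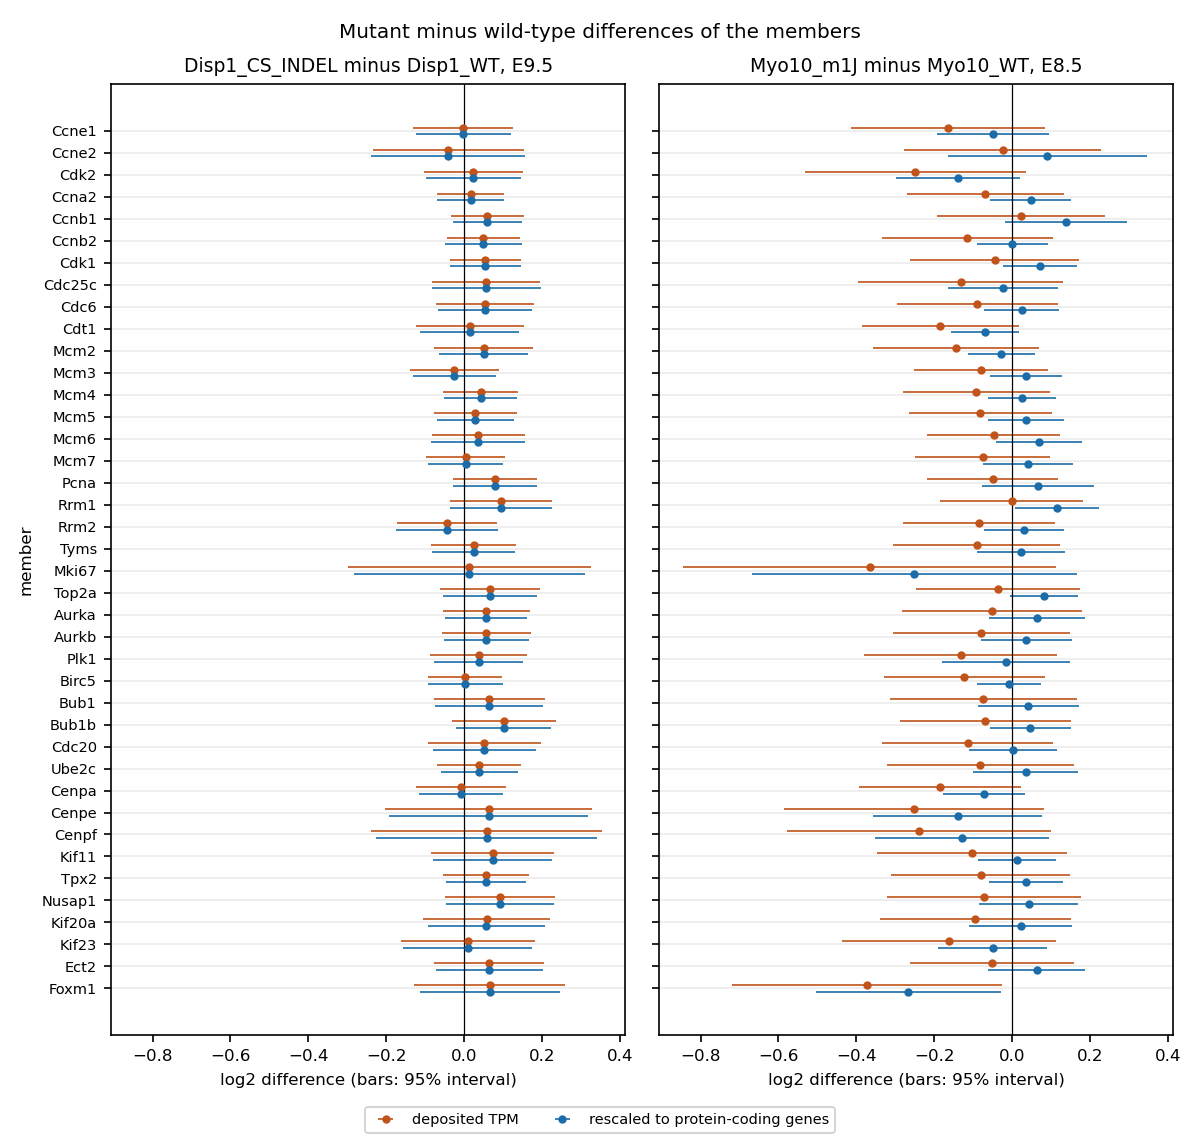
Log2 difference of each gene between mutants and wild types of the same age, with its 95% interval, on deposited TPM (orange) and rescaled to protein-coding genes (blue), for Disp1_CS_INDEL at E9.5 (left) and Myo10_m1J at E8.5 (right). On the left both scales coincide near 0. On the right rescaling moves every gene to the right, and Foxm1 is the only gene whose intervals leave out 0 on both scales. These intervals are not adjusted for the number of genes tested, and Foxm1 was not called on either scale.

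The 2 mutant effects were set against each other in a fit of all 17 embryos. None of the 40 genes differed by limma with Benjamini-Hochberg adjustment (0 in either direction, beside 0.0144% and 0.00719% of 13910 genes). Before adjustment Foxm1 alone of the 40 passed 0.05, and how many of all genes did so is not given here. The Disp1 effect on Foxm1 was above the Myo10 effect by 0.44 ± 0.20 (95% interval 0.02 to 0.86, limma adjusted p = 0.586). Cdk2 (0.27 ± 0.15), Cdt1 (0.20 ± 0.11), Mcm2 (0.19 ± 0.12) and Cenpa (0.18 ± 0.10) came next. The median over the 40 genes was 0.14, against 0.16 over all genes.

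Within groups, the SD of the rescaled log2 level had a median of 0.07 to 0.08 over the 40 genes in the 4 groups, against 0.10 to 0.13 over 11446 protein-coding genes. Those genes reached a rescaled TPM of 1 or more in every library and were not matched to the 40 by level. The part of level in this gap was not tested. Of the 40, 27 lay at or below that all-gene median in every group, 9 lay above it in 1 or 2 groups, and Mki67, Cenpe, Cenpf and Foxm1 lay above it in all 4. The share of all genes at or below it in every group was not computed, so whether 27 of 40 is unusual is unknown. Mki67 had an SD of 0.28, 0.20, 0.36 and 0.30 in Disp1_WT, Disp1_CS_INDEL, Myo10_WT and Myo10_m1J. Cenpe had 0.25, 0.13, 0.19 and 0.14, and Cenpf 0.25, 0.20, 0.21 and 0.13, and Foxm1 0.11, 0.16, 0.20 and 0.16. The embryo highest in Mki67 within each group was Disp1_WT 2, Disp1_CS_INDEL 1, Myo10_WT 1 and Myo10_m1J 2, at 0.39, 0.24, 0.41 and 0.41 above its group mean on the log2 scale. The same 4 embryos were also the highest of their groups in the median deviation of 1021 genes with transcripts of 7 kb or more, at 0.16, 0.13, 0.23 and 0.07. Over the 17 embryos, each set against its group mean, the Pearson correlation with this deviation was 0.90 for Cenpf, 0.89 for Mki67 and 0.88 for Cenpe. For Foxm1, whose transcript is shorter, it was 0.86. Over the other genes it ran from 0.77 (Tpx2) to -0.67 (Mcm6). What part this shared deviation has in the spread of Mki67, Cenpe, Cenpf and Foxm1 was not tested.

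Other genes of the same pathways, from lists also chosen with earlier results known, were read on the rescaled values of the wild types, again by limma with Benjamini-Hochberg adjustment. Of 56 other mitotic genes 10 were higher and 35 lower at E9.5 (median -0.28), and of 41 other replication genes 6 were higher and 23 lower (median -0.27), beside 26.5% and 45.7% of all genes. Higher were Cdc25b, a phosphatase that activates Cdk1 (1.40), and Cenpm of the inner kinetochore (0.99), and lower were Knl1, the checkpoint scaffold of the kinetochore (-1.88), and Pole, the leading-strand polymerase (-1.45). The 25 genes of G1 cyclins, retinoblastoma proteins and E2F gave 11 higher and 8 lower (median 0.22), with E2f1 (0.90), E2f2 (1.36) and Ccnd3 (0.72) higher and Lin54, a MuvB subunit that binds the CHR, lower (-1.21). Of 7 genes for CDK inhibitors, which halt the cycle, 6 could be tested, 4 were higher and 1 lower. Cdkn1a differed by 0.94, Cdkn2c by 0.66, Cdkn2d by 0.65, Cdkn1c by 0.42, Cdkn1b by 0.09 (limma adjusted p = 0.521) and Cdkn2a by -1.25. Cdkn2a was near the floor, with TPM of 0.113, 0.230, 1.69 and 0.272 in Disp1_WT and 2.06, 3.04, 0.832 and 0.416 in Myo10_WT. It reached the minimum for testing only after rescaling. Its highest Disp1_WT value came from Disp1_WT 3, the embryo with yolk sac and decidual transcripts. The mutants gave 10 higher and 34 lower for mitosis, 7 and 24 for replication, 13 and 8 for G1, and 4 and 1 for CDK inhibitors. Of all genes, 29.8% were higher and 42.2% lower in that comparison. On deposited TPM the wild-type counts were 35 and 7, 31 and 1, 22 and 1, and 5 and 0 in the same order. Of all genes, 69.4% were higher and 10.2% lower on that scale. None of these genes was called in either mutant comparison.

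The cell types of the embryo also differed between the ages, by their marker genes. Primitive erythroid markers (11 genes) summed to 28470 to 56915 TPM in the E9.5 embryos and 91.5 to 5300 in those of E8.5, and all 11 were called higher in the wild types by limma with Benjamini-Hochberg adjustment on both scales. Markers of neurons (10 genes) summed to 346 to 641 against 58.7 to 83.9 TPM, with 7 called higher after rescaling, and heart muscle markers (10 genes) to 2008 to 2716 against 309 to 1552, with 6. Yolk sac endoderm markers (9 genes) were higher at E8.5, at 642 to 2334 TPM, and all 9 were called, against 44.4 to 934 at E9.5. All these sums are of deposited TPM and were not rescaled, so the lower protein-coding share of the E8.5 libraries enters them. The part of these cell types in the age differences of the 40 genes was not tested.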

How the data were processed

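The deposited values are TPM for 41709 gene symbols, which the authors scaled to the same total in each library. TPM keeps no read depth, so depth is unknown and no counting interval is given. The submitters' processing notes name the build GRCm39 (mm39), and which software and annotation made the values is not given in the sources used here. Per the labels, both experiments used single embryos, 1 RNA kit, a TruSeq RNA kit and a NovaSeq instrument. Groups and replicate numbers came from the titles.

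TPM was turned into log2(TPM + 1), and a gene was tested where 4 or more libraries of the fit reached a TPM of 1. Tests were made with limma 3.58.1 (R 4.3.3), whose moderated variances followed a trend on mean expression. P-values were adjusted over all genes tested by the Benjamini-Hochberg method, with a threshold of 0.05. Each comparison used its own groups, and the difference of the mutant effects used all 17 libraries. Folds on this scale understate changes of low genes. Protein-coding rescaling used RefSeq biotypes of GRCm38.p6 and left out mitochondrial and replication-dependent histone genes. Lengths are the longest protein-coding transcripts of GENCODE M21 (GRCm38). Both differ from the authors' build and were joined by symbol. The fits were tested on simulated data.

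The 40 genes, role classes and lists were chosen with earlier results of these data known. Genes given in every embryo were the most abundant of each role class and the 5 with the smallest p of each comparison, and Cenpf, Cenpe and Ccne2 were added after their values were seen. From the other lists, up to 4 genes per direction were eligible by smallest p, with each CDK inhibitor tested. Alternatives changed the pseudocount (0.1), the filter (none, or a mean TPM of 5), the scaling, the variance trend, the libraries in the fit, the replicate block and the embryos included. P-values measure the spread between embryos of unknown litter.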

Additional observations from a re-analysis of the deposited data

Results flagged for a closer look

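Among 96 groups of 4 or 5 embryos examined for a value far from the rest (a gap to the nearest value above Dixon's 95% limit, which chance exceeds in about 1 in 20 groups), 4 had such a value. Nusap1 was 32.0 TPM in Myo10_WT 3, against 38.6 to 39.9 in the other 3 embryos of its group. Aurkb was 147 TPM in Disp1_WT 2, against 139.8 to 140.8 in the others. Mcm5 was 278 TPM in Myo10_WT 2, against 242 to 247, and Cdc20 was 299 TPM in the same embryo, against 264 to 269. The wild-type age call of Aurkb after rescaling to protein-coding genes was lost without Disp1_WT 2, as given above, while the calls of Mcm5 and Cdc20 between the ages turned direction with the scale whether or not that embryo was included.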

How the results depend on the processing

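Whether a gene was called in the mutant comparisons did not depend on any setting tried: none of the 40 genes was called in either, nor in the difference of the effects, under any alternative. The median of the 40 log2 differences moved to 0.095 with median-of-ratios scaling for Myo10_m1J, to -0.045 (median-of-ratios) and 0.022 (protein-coding) for the difference of the effects, and to -0.0018 on deposited TPM and 0.0039 after rescaling for Disp1_CS_INDEL without both embryos low in caudal transcripts. Between the ages the scale decided most directions. In the wild types median-of-ratios scaling gave 12 higher and 12 lower with a median of -0.0081, and protein-coding rescaling 6 and 28 with -0.22. In the mutants the same scalings gave 10 and 16 with -0.048, and 6 and 24 with -0.19. Of the 40 genes, 13 went from above 0 on deposited TPM to below 0 with median-of-ratios scaling and 22 with protein-coding rescaling in the wild types, and 19 and 26 in the mutants. Among the genes named by the rule for each comparison, those reversed in the wild types under both scalings were Ccnb1 (-0.22, -0.44), Mcm5 (-0.093, -0.30), Pcna (-0.027, -0.24), Cdc20 (-0.046, -0.26) and Kif20a (-0.51, -0.73), and with protein-coding scaling only Ccne1 (-0.20) and Tpx2 (-0.059); Top2a was at 0.0036 without haemoglobin genes. Among those named in the mutants, the reversed ones were Ccne1 (-0.0095, -0.15), Ccnb1 (-0.37, -0.51), Mcm5 (-0.17, -0.31), Pcna (-0.081, -0.23), Top2a (-0.81, -0.95), Cdc20 (-0.064, -0.21) and Kif20a (-0.55, -0.69), and Tpx2 with protein-coding scaling (-0.039). With each embryo left out, Top2a ran from -0.010 without Myo10_m1J 4 to 0.074. Cenpa in the difference of the effects was at -0.0023 with median-of-ratios scaling. The mutant count of lower genes on deposited TPM was 1 with no filter, without haemoglobin genes and in the fit of all 17 libraries. The cause of these changes was not tested beyond the scale itself.

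With each embryo left out, medians on deposited TPM ran from 0.015 to 0.065 (Disp1_CS_INDEL), -0.14 to -0.038 (Myo10_m1J), 0.090 to 0.18 (difference), 0.62 to 0.70 (wild-type ages) and 0.75 to 0.83 (mutant ages). After rescaling they ran from 0.020 to 0.061, 0.0021 to 0.037, 0.0037 to 0.036, -0.24 to -0.21 and -0.20 to -0.17. Counts higher and lower were 31 to 32 and 2 to 5 in the wild types and 31 to 33 and 1 to 3 in the mutants on deposited TPM, and 5 to 6 and 26 to 28, and 6 to 7 and 21 to 26, after rescaling. The count of lower genes was 5 without Myo10_WT 3, 1 in the mutants without Disp1_CS_INDEL 2, 3 or 4 or Myo10_m1J 1, 2 or 5, and 3 without Myo10_m1J 4.

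Replicate numbers did not pair the embryos: the correlation of same-numbered deviations ran from -0.287 to 0.463 within an experiment, and the labels give the numbers no meaning. With the replicate block, 5 genes were lower in the wild-type ages in place of 3, and the 40 genes again had no call in the mutant comparisons. Depth cannot be read from TPM, so how far it limits the lowest genes, such as Cdc25c, is unknown.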

Other observations

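The replication-dependent histone genes, which supply the proteins that wrap newly copied DNA, are S phase genes outside the 40 and differed widely between the experiments. Their 63 symbols summed to 187 to 240 TPM in the 8 embryos of E9.5 and to 67881 to 86600 TPM in the 9 of E8.5. Limma with Benjamini-Hochberg adjustment called 59 of 60 tested lower and 1 higher at E9.5 on deposited TPM, with a median log2 difference of -8.60 in the wild types. The gene called higher was H2bc21, with a mean of 4.75 TPM in Disp1_WT and 1.60 in Myo10_WT. Replication-dependent histone transcripts typically lack a poly(A) tail, as do the structural RNAs that differed in the same libraries. The part of this in the difference was not tested. None of the histone genes was called in either mutant comparison.

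The 16 genes of the p53 response, which can halt the cycle after damage, gave 6 higher and 6 lower in the wild types after rescaling to protein-coding genes, and 6 and 7 in the mutants, by limma with Benjamini-Hochberg adjustment. Over all genes on that scale 26.5% were higher and 45.7% lower in the wild types, and 29.8% and 42.2% in the mutants. On deposited TPM the list gave 9 higher and 2 lower in the wild types, beside 69.4% and 10.2% of all genes. In the mutants it gave 11 and 1, beside 77.5% and 8.28%. After rescaling in the wild types, Btg2, an antiproliferative gene, was higher at E9.5 by 1.16 and Mdm2, the ligase that removes p53, lower by the model at -0.75. The mean deposited TPM of Mdm2 was 26.2 in Disp1_WT and 24.2 in Myo10_WT, so it was not lower on that scale. No gene of this list was called in Disp1_CS_INDEL or Myo10_m1J embryos.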
